A study of Mus musculus with 16 samples.

Results

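The genes of cholesterol and fatty acid synthesis were followed through the degradation of RUVBL2 in mouse embryonic stem cells. They were taken by gene symbol from a list of 30, all of which were found among the 55335 genes of the count and TPM (length-scaled abundance, summing to the same total in every library) tables, and all of which passed the filter on low counts that left 15155 genes for testing. The list was divided by role into a sterol arm of 18 genes, a fatty acid arm of 7 genes, and a group of 5 regulators with a sterol carrier. Poly(A) RNA-Seq had been made from 16 libraries, 2 for each of 8 conditions.

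Every library came from V6.5 mouse embryonic stem cells whose endogenous RUVBL2, an AAA+ ATPase, carried a C-terminal mAID-GFP degron tag, and which also carried a Tet-ON OsTIR1 transgene. OsTIR1 is a plant F-box protein that, in the presence of auxin, brings mAID-tagged proteins to the proteasome. Mock cells were untreated. Dox cells received 2 μg/ml doxycycline for 24 h, which switches OsTIR1 on, and stand for 0 h of auxin. The remaining cells received the same doxycycline and then 500 μM auxin (indole acetic acid) for 0.5, 1, 6, 12, 24 or 48 h. The tag and the transgene were thus present in the Mock and Dox controls as well, and the Mock to Dox comparison measured doxycycline and OsTIR1 induction without auxin. The cells for sequencing were grown with fetal serum, which carries lipids, and LIF over irradiated embryonic fibroblasts, and per the methods mouse stem cells were passaged off these feeders before harvest. Cells of a later auxin time had also spent longer in culture and longer since the start of doxycycline, whose removal the methods do not mention. Time of depletion, time in culture and time since doxycycline thus cannot be told apart. No group received auxin without doxycycline or without the tag, so an effect of auxin itself cannot be told apart either.

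Cholesterol is built from acetyl-CoA through mevalonate, isoprenoid pyrophosphates, squalene and lanosterol, and fatty acids are built from the same acetyl-CoA through malonyl-CoA. Genes of both pathways are classical targets of the sterol regulatory element binding proteins (SREBPs), membrane-bound factors that SCAP escorts out of the endoplasmic reticulum when sterol is scarce and that INSIG proteins hold back when it is plentiful. SREBP-2, from Srebf2, is best known for sterol genes and SREBP-1c, from Srebf1, for fatty acid genes, and liver X receptors, which sense oxysterols, activate Srebf1 together with the sterol exporters.

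The libraries held 11666732 to 13924958 counts each, and 19847 to 21456 genes had a count above 0. Within a condition the 2 libraries correlated at 0.9889 to 0.9908 on the log2 scale of CPM (counts relative to library size, TMM-scaled) across genes, and differed by more than counting noise in each of the 8 pairs (1.58 to 2.78 times the chi-square expected per gene), so no library appeared to be deposited in duplicate. The methods call such libraries technical duplicates, so the p-values below reflect the scatter of these libraries alone, which may be purely technical. Ruvbl2 mRNA lay between 129 and 189 CPM in all 16 libraries, and as degradation acts on the protein, it does not check the labels. The summed level of 10 pluripotency markers was 5170 to 7300 CPM, and lowest at 24 h (5170 to 5290 CPM). At 24 h 3 of these 10 were called lower and 0 higher, against 20.3% and 20.2% of all genes. Nanog went from 1180 and 1160 CPM at 0 h to 532 and 491 CPM at 24 h. Zfp42 went from 934 and 942 CPM to 326 and 318 CPM, while 3 of the 10 had positive values. The summed level of 14 fibroblast markers was 10 to 29.7 CPM, lowest in Mock (10 to 11.3 CPM) and highest at 24 h (26.7 to 29.7 CPM). Fap was at 0 in all 16 libraries, Lum and Lox in 15 and Dcn in 14, and Col1a1 did not exceed 1.14 CPM. Of the 5 markers with enough counts to test, 3 were higher at 6 h and 2 at 12 h, while 24 h had 1 higher with 1 lower, then 48 h had 3 with 1. Pdgfrb went from 1.15 and 1.99 CPM at 0 h to 13.9 and 16.5 CPM at 24 h (log2 fold change 3.28 ± 0.26), Thy1 from 2.65 and 2.73 CPM at 0 h to 4.86 and 5.5 CPM at 6 h (0.94 ± 0.22), and Col5a1 ranged from 5.64 to 13.8 CPM. The parts of fibroblast RNA and of the lower pluripotency markers at 24 h in the results below were not tested.

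To ask when these genes moved, each auxin time was compared with 0 h, and Dox with Mock, by edgeR's quasi-likelihood test over all 15155 genes. A gene is called higher or lower here when its Benjamini-Hochberg adjusted p was under 0.05 and its fold change over 1.5. No member was called at 0.5, 1 or 6 h. At 12 h, 1 member was higher and 7 were lower, against 14.8% of all tested genes higher and 13.2% lower. At 24 h, 1 was higher and 8 were lower, against 20.2% higher and 20.3% lower among all genes. At 48 h, none was higher and 17 of 30 were lower, against 17.9% higher and 17.6% lower among all genes. Among 12, 24 and 48 h, the share of members called lower was nearest to that of all genes at 24 h and furthest above it at 48 h. Of the 30 members, 22 were called in at least 1 of the 7 comparisons and 8 in none. Acat2, Hmgcs1, Idi1, Sqle and Acss2 were lower at 12, 24 and 48 h alike, and 10 further members were lower at 48 h and at neither 12 nor 24 h. For these counts over several comparisons the matching shares of all genes were not determined, so they are not set against a background. The heat map of fold changes shows these calls by gene and time. The 6 auxin times share the 0 h libraries, so they are not independent of each other, and in bulk libraries fewer cells of a type and less RNA per cell cannot be told apart.

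**Figure D1:**
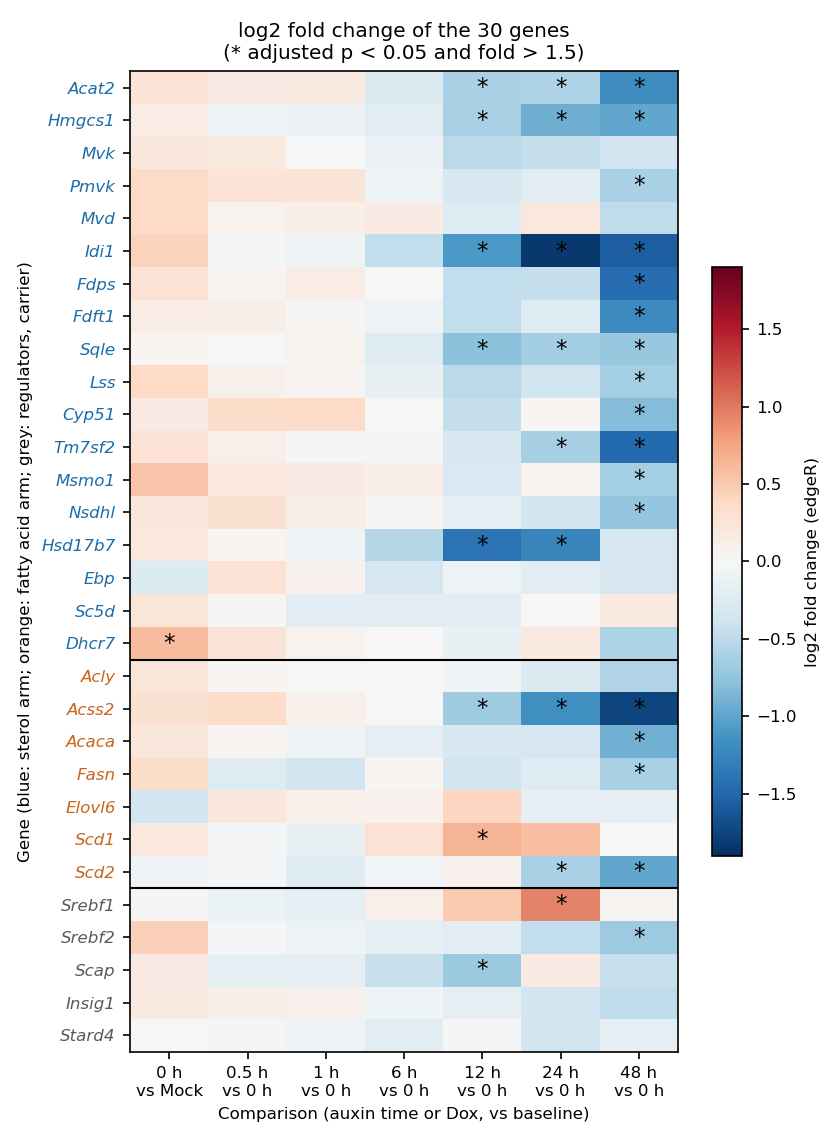
Heat map of the log2 fold change of each of the 30 genes (rows, grouped by arm) in 7 comparisons (columns), with an asterisk where the gene was called. All 18 sterol genes are blue at 12 h, 14 at 24 h and 17 at 48 h, with Idi1 at 24 h (-1.84) and Acss2 at 48 h (-1.74) the deepest, while Srebf1 at 24 h (0.95) is the strongest red cell.

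Doxycycline alone was accompanied by slightly larger values of most sterol genes. Dhcr7, the reductase of the last step of cholesterol synthesis, measured 34.5 and 34.6 CPM in Mock and 50.4 and 54.2 CPM in Dox, and was the single member called (log2 fold change 0.60 ± 0.069 SE, adjusted p = 3.6e-07 by edgeR). Among all genes 5.19% were higher and 4.24% lower in this comparison. The call was lost without Dox replicate 2 (log2 fold change 0.54). Msmo1 (0.54 ± 0.052), Srebf2 (0.45 ± 0.041) and Idi1 (0.44 ± 0.056) lay below the fold threshold with Dox libraries above both Mock libraries. The median log2 difference was 0.25 in the sterol arm and 0.21 in the fatty acid arm, where Elovl6 went the other way (-0.36 ± 0.045).

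The direction of a change was relative to the other genes of a library. When libraries were scaled to reads mapped to the fly genome dm6, which the study lists for each library, the median of all genes moved by 0.39 for Dox against Mock, and by 0.19, -0.56, -0.21 and -0.19 at 1, 12, 24 and 48 h (0.5 and 6 h within 0.04 of 0). The methods do not describe how fly RNA entered these RNA-Seq libraries. On that scale 19 members were higher in Dox, as were 3448 of all 15155 genes, and 26, 13 and 22 members were lower at 12, 24 and 48 h, as were 6643, 4331 and 3737 of all genes. No called member changed sign on the fly scale in the 7 comparisons, although Scd1 lost its call at 12 h, and for 48 h against 24 h Acat2 and Acaca lost theirs.

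The choice of control mattered as well. Against Mock in place of Dox, the members called at 0.5, 1 and 6 h were all higher (Pmvk, Msmo1, Dhcr7 and Acss2 at 0.5 h, Msmo1 and Dhcr7 still at 6 h), and at 24 h Msmo1 (0.61) and Dhcr7 (0.78) were higher beside Scd1 and Srebf1. The calls at 48 h of Pmvk (-0.24), Lss (-0.26), Msmo1 (-0.11), Nsdhl (-0.52), Fasn (-0.26) and Srebf2 (-0.24) were lost against Mock. So were those of Acat2, Hmgcs1, Acss2 and Scap at 12 h (-0.35, -0.48, -0.38 and -0.56) and of Acat2 and Tm7sf2 at 24 h (-0.33 and -0.36). Where a library is left out below, its group keeps 1 library, which is assumed to vary like those of the other groups.

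In the first hours of auxin the members stayed close to their 0 h level. By edgeR's quasi-likelihood test 0 of 30 were called at 0.5 h (0.455% of all genes higher and 0.277% lower), 0 at 1 h (0.666% and 0.541%) and 0 at 6 h (10.1% and 5.7%). At an unadjusted p under 0.05 there were 12, 13 and 14 members, and DESeq2 and limma called 0 at each of these times. The counts at an adjusted p under 0.05 without the fold threshold were 6, 6 and 13. For the counts without the fold threshold, adjusted or not, the shares of all genes were not determined. They are therefore not set against a background. At 6 h 19 members had negative and 11 positive values. Idi1 (-0.47 ± 0.055) and Scap (-0.43 ± 0.09) lay below 0 h in both 6 h libraries. Cyp51, the lanosterol demethylase, was 94.7 and 92.9 CPM at 0 h, 121 and 118 CPM at 0.5 h and 115 and 126 CPM at 1 h, and the early libraries lay above both 0 h libraries (log2 difference 0.35 ± 0.054 and 0.36 ± 0.054). Fasn, which makes palmitate, went the other way, from 720 and 701 CPM at 0 h to 543 and 562 CPM at 1 h (-0.36 ± 0.042), and stood at 756 and 699 CPM at 6 h. Hsd17b7, a reductase in the removal of sterol methyl groups, reached -0.54 ± 0.13 at 6 h, and without Dox replicate 2 it was called lower (-0.60).

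The genes at the entry of the mevalonate pathway were called lower from 12 h on. Acat2 and Hmgcs1 were already slightly lower at 6 h (-0.27 ± 0.048 and -0.21 ± 0.038), under the fold threshold. Acat2, the cytosolic thiolase that joins acetyl-CoA units, measured 136 and 141 CPM at 0 h, 86.7 and 93.9 CPM at 12 h, 88.4 and 94.8 CPM at 24 h, and 61.6 and 60.2 CPM at 48 h. Every library from 12 h on was below both 0 h libraries, with log2 fold changes of -0.62 ± 0.05, -0.59 ± 0.05 and -1.18 ± 0.053 (adjusted p = 2.7e-10, 2.3e-10 and 3.2e-15 by edgeR). The 12 h call was lost without 12 h replicate 1 (-0.56). The Acat2 call at 24 h sat at the fold threshold and was lost with DESeq2 (-0.58), without Dox replicate 2 (-0.57) and without 24 h replicate 1 (-0.54), while the call at 48 h was kept in each of the 16 alternatives. Hmgcs1, which condenses acetoacetyl-CoA and acetyl-CoA to HMG-CoA, was the most abundant sterol gene per transcript length at 0 h (218 ± 0.85 TPM, SD, n = 2). It measured 310 and 313 CPM at 0 h, 205 and 200 CPM at 12 h, 167 and 159 CPM at 24 h, and 156 and 159 CPM at 48 h. Hmgcs1 thus fell stepwise until 24 h and then held, at -0.62 ± 0.039, -0.93 ± 0.04 and -0.98 ± 0.04.

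Of the kinases and the decarboxylase that turn mevalonate into isopentenyl pyrophosphate, Pmvk alone was called. Mvk, mevalonate kinase, had values of -0.51, -0.45 and -0.37 at 12, 24 and 48 h and was not called, but it was called lower at 12 h without Dox replicate 2 (-0.63) or without 12 h replicate 2 (-0.60). Pmvk, phosphomevalonate kinase, was called lower at 48 h (32.2 and 30.5 CPM at 0 h, 18.2 and 22.8 CPM at 48 h, -0.61 ± 0.11, adjusted p = 5.1e-05 by edgeR), but not without Dox replicate 1 (-0.57) or without 48 h replicate 1 (-0.46). Mvd, the decarboxylase, was not called against 0 h, with -0.25, 0.20 and -0.48, except at 48 h without 48 h replicate 1 (-0.60).

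Idi1, the isomerase that makes dimethylallyl pyrophosphate, had the largest fold change of the 30 genes in these comparisons. Its level was 125 and 117 CPM at 0 h, 121 and 118 CPM at 0.5 h, 110 and 121 CPM at 1 h, and 87.3 and 88.4 CPM at 6 h. It then stood at 58.1 and 56.3 CPM at 12 h, 31.2 and 36.3 CPM at 24 h, and 40.4 and 41.6 CPM at 48 h. The libraries of 6 h and later were all below those of 0 h, and the lowest level was at 24 h. The log2 fold changes were -1.09 ± 0.06, -1.84 ± 0.065 and -1.57 ± 0.063 at 12, 24 and 48 h (adjusted p = 2.5e-13, 2.1e-17 and 4e-16 by edgeR), and the call at each of these times was kept in all 16 alternatives.

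Of the enzymes that lead from isoprenoids to the first sterol, Fdps and Fdft1 fell mainly at 48 h, and Sqle and Lss mainly by 12 h. Fdps, farnesyl pyrophosphate synthase, measured 205 and 209 CPM at 0 h, 153 and 146 CPM at 12 h, 155 and 147 CPM at 24 h, and 77 and 74.6 CPM at 48 h. Its 12 h and 24 h libraries were already below those of 0 h (-0.47 and -0.46, under the fold threshold), and at 48 h it was called lower (-1.45 ± 0.054, adjusted p = 1.4e-16 by edgeR). Fdft1, squalene synthase, measured 146 and 151 CPM at 0 h, 104 and 110 CPM at 12 h, 135 and 115 CPM at 24 h, and 62.4 and 65.3 CPM at 48 h. It therefore lay between the 0 h and 12 h levels at 24 h and was called lower at 48 h alone (-1.21 ± 0.067). Sqle, squalene epoxidase, behaved differently, with 123 and 122 CPM at 0 h, 68 and 74.7 CPM at 12 h, 79.9 and 74.4 CPM at 24 h, and 71.1 and 77.3 CPM at 48 h. After 12 h its libraries overlapped between times, with log2 fold changes of -0.78 ± 0.057, -0.66 ± 0.057 and -0.72 ± 0.057. Lss, lanosterol synthase, was called lower at 48 h (84.7 and 87.4 CPM at 0 h, 55.7 and 54.6 CPM at 48 h, -0.64 ± 0.052). It already stood at 60.4 and 60.6 CPM at 12 h (-0.51, under the fold threshold) and at 66.6 and 66.1 CPM at 24 h (-0.38).

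Of the enzymes that turn lanosterol into cholesterol, 4 were called lower at 48 h, and of these Cyp51 and Tm7sf2 also against Mock. Cyp51 measured 66.6 and 70.9 CPM at 12 h, 98.3 and 94 CPM at 24 h, and 52.7 and 52.6 CPM at 48 h, so its 24 h level was back at that of 0 h before the fall at 48 h (-0.83 ± 0.06). Msmo1, the methylsterol oxidase, followed the same course, with 125 and 118 CPM at 0 h, 97 and 101 CPM at 12 h, 131 and 123 CPM at 24 h, and 79.5 and 75.3 CPM at 48 h (-0.65 ± 0.052 at 48 h). Tm7sf2, a sterol reductase, fell from 23.1 and 27.1 CPM at 0 h to 15.2 and 17.1 CPM at 24 h and 8.52 and 9.53 CPM at 48 h (-0.63 ± 0.12 and -1.47 ± 0.13, adjusted p = 3.9e-05 and 4.9e-10 by edgeR). The 24 h call of Tm7sf2 was lost without Dox replicate 2 (-0.52) and without 24 h replicate 1 (-0.54). Nsdhl, a sterol dehydrogenase, measured 27.7 and 23.6 CPM at 0 h and 15 and 15.8 CPM at 48 h (-0.74 ± 0.1).

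Hsd17b7, which acts next to Nsdhl in the same demethylation, had the opposite late course. It measured 18.6 and 17.2 CPM at 0 h, 12 and 12.6 CPM at 6 h, 7.67 and 5.79 CPM at 12 h, 6.62 and 8.25 CPM at 24 h, and 15.4 and 13.4 CPM at 48 h. The 12 h and 24 h libraries were below all others, and the 48 h libraries lay just under those of 0 h. It was called lower at 12 h and 24 h (-1.41 ± 0.15 and -1.26 ± 0.14, adjusted p = 1.7e-08 and 3.9e-08 by edgeR) and not at 48 h (-0.32 ± 0.13). Ebp, the sterol isomerase, stayed between -0.32 and 0.27 at all auxin times, and Sc5d, the desaturase, between -0.22 and 0.19. Dhcr7 reached -0.58 ± 0.069 at 48 h, just under the fold threshold, and was called lower there without Dox replicate 1 (-0.63) or without 48 h replicate 2 (-0.60).

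**Figure D2:**
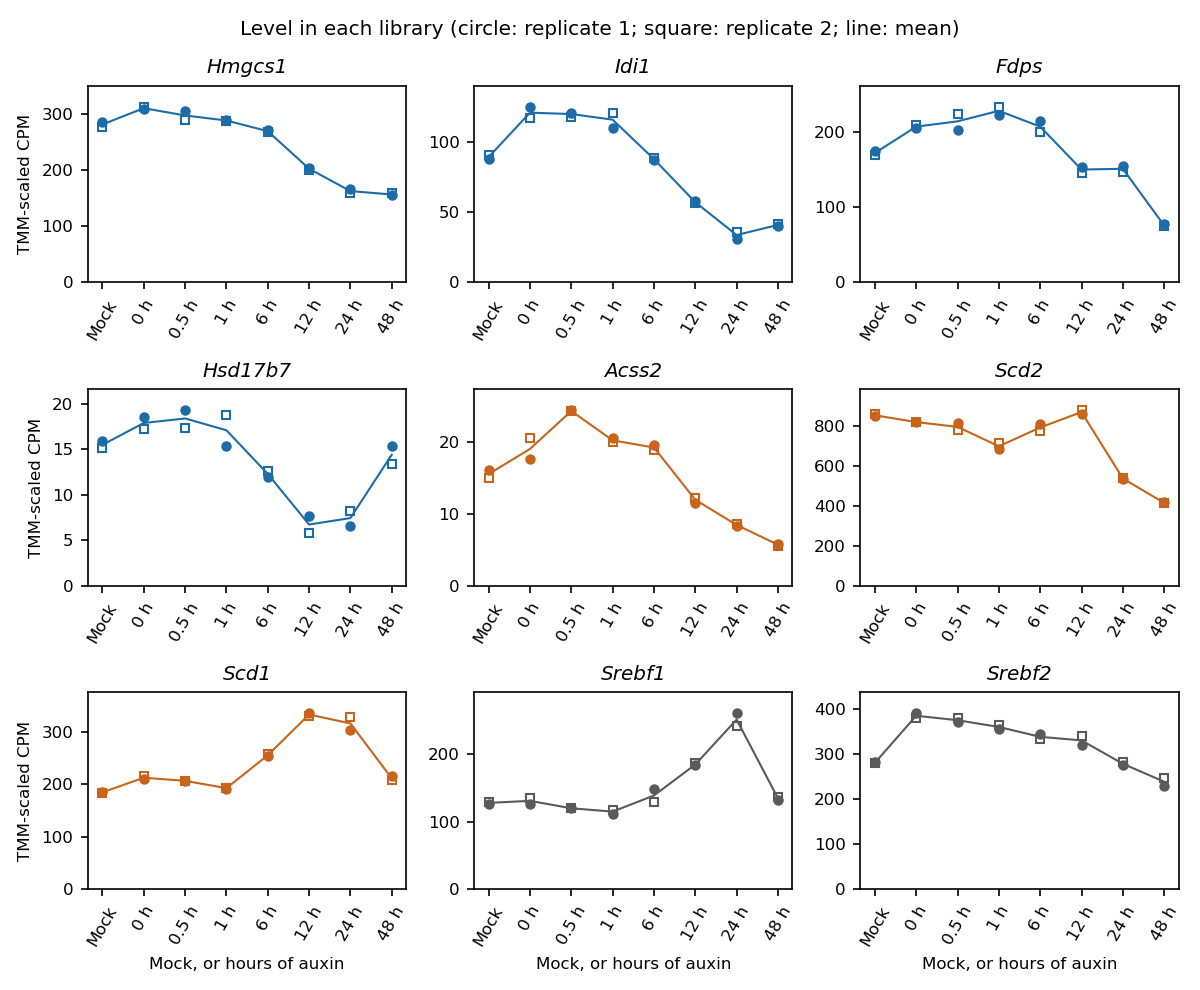
Level of 9 of the genes in each of the 16 libraries (vertical axis, TMM-scaled CPM from 0; horizontal axis, Mock and then hours of auxin), with a symbol per library and a line through the means. Fdps and Acss2 decline after 6 h, while Hmgcs1 and Idi1 already lie below 0 h at 6 h and decline further. Hsd17b7 is low at 12 and 24 h and returns to 15.4 and 13.4 CPM at 48 h, and Scd1 and Srebf1 pass through a maximum.

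The promoters were read for the elements that SREBPs and their partner factors are known to use. RefSeq promoters (GRCm38.p6, 250 bases before to 50 bases after the start) were held for 24 of the 30 members, and not for Sqle, Stard4, Scd1, Fdps, Scd2 and Fdft1. The pentamer CCAAT, the box bound by NF-Y, was searched on both strands, and was present in 14 of 15 sterol genes and 3 of 5 fatty acid genes (77.8% of the sterol arm's promoter entries), against 37.4% of all 32851 promoters. GGGCGG, the GC box bound by Sp1, was present in 14 of 15 sterol genes and 2 of 5 fatty acid genes, against 38.2% of all genes. By promoter entry the shares were 83.3% and 40.0%, against 35.7% of all promoters. The sterol regulatory element TCACNCCAC was present in 1 of the 30 promoter entries of the members, that of Hmgcs1, against 1.24% of all promoters. Other forms of this element were not searched. Matches were counted whether or not they overlapped a match to another motif, and a match is a run of letters and not a shown binding site.

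The promoters of 4 genes called lower at 12 h are given because they span the courses seen from then on, level after 24 h (Hmgcs1), deepest at 24 h (Idi1), near the 0 h level again at 48 h (Hsd17b7) and deepest at 48 h (Acss2). Capitals mark CCAAT, which reads ATTGG on the other strand, and in Hmgcs1 also the sterol regulatory element, which starts at position -137 from the start. Each is written 5′ to 3′ along the gene's strand, in build GRCm38.p6. Hmgcs1 is at chr13:119690101-119690400 (plus strand), Idi1 at chr13:8885356-8885655 (plus), Hsd17b7 at chr1:169969156-169969455 (minus) and Acss2 at chr2:155517793-155518092 (plus).
Hmgcs1: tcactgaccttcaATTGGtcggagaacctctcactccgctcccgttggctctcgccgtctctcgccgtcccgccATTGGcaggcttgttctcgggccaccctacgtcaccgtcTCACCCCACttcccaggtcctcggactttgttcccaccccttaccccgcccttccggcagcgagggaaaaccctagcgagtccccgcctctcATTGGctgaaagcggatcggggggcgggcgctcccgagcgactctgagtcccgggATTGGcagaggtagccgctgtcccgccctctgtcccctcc
Idi1: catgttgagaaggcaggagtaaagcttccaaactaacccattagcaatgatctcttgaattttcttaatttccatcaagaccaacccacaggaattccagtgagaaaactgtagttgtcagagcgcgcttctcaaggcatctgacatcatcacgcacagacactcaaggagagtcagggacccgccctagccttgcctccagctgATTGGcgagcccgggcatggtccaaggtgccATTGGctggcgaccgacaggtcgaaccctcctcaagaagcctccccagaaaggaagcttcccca
Hsd17b7: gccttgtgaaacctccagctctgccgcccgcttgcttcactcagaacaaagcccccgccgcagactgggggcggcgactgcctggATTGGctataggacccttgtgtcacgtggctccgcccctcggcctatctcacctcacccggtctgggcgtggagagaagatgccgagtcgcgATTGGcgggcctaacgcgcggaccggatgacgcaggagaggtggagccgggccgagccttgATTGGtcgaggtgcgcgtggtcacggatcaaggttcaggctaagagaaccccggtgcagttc
Acss2: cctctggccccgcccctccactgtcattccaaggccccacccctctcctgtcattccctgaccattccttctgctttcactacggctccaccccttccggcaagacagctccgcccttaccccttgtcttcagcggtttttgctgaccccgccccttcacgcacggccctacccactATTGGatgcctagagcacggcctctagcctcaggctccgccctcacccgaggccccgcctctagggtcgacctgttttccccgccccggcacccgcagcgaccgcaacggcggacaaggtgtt
Hmgcs1 held 4 CCAAT boxes, Hsd17b7 3, Idi1 2 and Acss2 1, and Acss2 held 5 GC boxes.

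In the fatty acid arm Acss2 was the gene called lower at 12 h. Acss2, which makes acetyl-CoA from acetate, measured 17.7 and 20.6 CPM at 0 h, 11.6 and 12.3 CPM at 12 h, 8.4 and 8.56 CPM at 24 h, and 5.84 and 5.61 CPM at 48 h. Each of these times lay below the one before without overlap, and the log2 fold changes were -0.68 ± 0.11, -1.17 ± 0.11 and -1.74 ± 0.12 (adjusted p = 9.7e-06, 3e-09 and 1.3e-11 by edgeR). The call at 12 h was lost without Dox replicate 2 (-0.56). Acly, which makes acetyl-CoA from citrate and stood at 330 ± 1.59 TPM (SD, n = 2) at 0 h, moved less, with 539 and 545 CPM at 0 h, 525 and 514 CPM at 12 h, 447 and 447 CPM at 24 h, and 373 and 355 CPM at 48 h. Its libraries of 24 h and 48 h were below those of 0 h, but the 48 h value (-0.57 ± 0.035) stayed under the fold threshold unless 48 h replicate 1 was left out (-0.61, called lower).

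The genes of chain synthesis were called lower at 48 h. Acaca, acetyl-CoA carboxylase, measured 67.4 and 72.7 CPM at 0 h, 54.2 and 58.1 CPM at 24 h, and 37.2 and 37.4 CPM at 48 h (-0.91 ± 0.069, adjusted p = 4.4e-11 by edgeR). Fasn measured 593 and 611 CPM at 24 h and 455 and 477 CPM at 48 h, where it was called lower (-0.61 ± 0.043), but not without 48 h replicate 1 (-0.58). For both genes every library of 12 h and later lay below both 0 h libraries.

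The elongase and the desaturases did not move together. Elovl6, which elongates palmitate, reached 216 and 225 CPM at 12 h from 159 and 171 CPM at 0 h (0.41 ± 0.045, under the fold threshold) and lay at 150 and 149 CPM at 48 h. Scd1, a stearoyl-CoA desaturase, measured 210 and 216 CPM at 0 h, 254 and 258 CPM at 6 h, 336 and 332 CPM at 12 h, 305 and 329 CPM at 24 h, and 216 and 209 CPM at 48 h. It was higher at 12 h (0.65 ± 0.04, adjusted p = 1.6e-12 by edgeR), just under the fold threshold at 24 h (0.57 ± 0.04, called without Dox replicate 2, 0.60, or without 24 h replicate 1, 0.64), and at 48 h its libraries overlapped those of 0 h. On the fly scale the 12 h value of Scd1 was 0.09 and no longer called, and that of Elovl6 turned to -0.15. Scd2, the main desaturase of these cells by level (481 ± 2.76 TPM against 140 ± 2.66 TPM for Scd1 at 0 h, SD, n = 2), measured 820 and 816 CPM at 0 h, 858 and 877 CPM at 12 h, 533 and 539 CPM at 24 h, and 416 and 412 CPM at 48 h. It was called lower at 24 h and 48 h (-0.61 ± 0.036 and -0.98 ± 0.036), so between 12 h and 24 h Scd2 fell while Scd1 stayed near its maximum. Scd1 and Scd2 are close paralogs, and reads shared between them were divided by the estimation of the counts.

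Among the regulators, Srebf1 was called higher at 24 h and Srebf2 lower at 48 h. Srebf1 measured 127 and 135 CPM at 0 h, 148 and 130 CPM at 6 h, 184 and 187 CPM at 12 h, 261 and 243 CPM at 24 h, and 133 and 137 CPM at 48 h. The 24 h libraries stood above all others (0.95 ± 0.051, adjusted p = 5.7e-14 by edgeR), and its 48 h libraries overlapped those of 0 h (0.05 ± 0.054). The 12 h value of 0.50 turned to -0.06 on the fly scale, while the 24 h call was kept there (0.73). Srebf2 measured 391 and 380 CPM at 0 h, 321 and 340 CPM at 12 h, 276 and 282 CPM at 24 h, and 230 and 248 CPM at 48 h. It was called lower at 48 h (-0.69 ± 0.041, adjusted p = 5.4e-13 by edgeR), but its 48 h level was closer to that of Mock (282 and 281 CPM), and against Mock it was not called (-0.24).

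Scap, the escort of both SREBPs, measured 31 and 33.5 CPM at 0 h, 18.7 and 20.7 CPM at 12 h, 36.6 and 35.3 CPM at 24 h, and 21.8 and 26.4 CPM at 48 h. It was called lower at 12 h (-0.71 ± 0.095) and lay above 0 h in both 24 h libraries (0.16 ± 0.086). Insig1, itself an SREBP target that retains SCAP, ranged from 177 CPM at 0.5 h to 111 CPM at 48 h and was not called, reaching -0.48 ± 0.046. Stard4, a soluble sterol carrier, stayed between -0.37 and 0.02 at the auxin times and was not called.

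The arms were then set side by side. At 12 h all 18 sterol genes had negative values (median log2 fold change -0.46, 5 lower), whereas the fatty acid genes were divided, with 4 negative and 3 positive values (median -0.06, 1 lower and 1 higher), where 13.2% of all genes were lower and 14.8% higher. On the fly scale the 12 h values of Elovl6 (-0.15) and Scd2 (-0.48) turned negative, while that of Scd1 stayed positive. The difference between the medians was -0.40, with an SD of 0.056 between the 12 h libraries. At 24 h the medians were -0.37 and -0.28, with 6 of 18 and 2 of 7 lower against 20.3% of all genes. At 48 h they were -0.68 and -0.61, with 12 of 18 and 4 of 7 lower against 17.6% of all genes. The difference was -0.09 at 24 h, then -0.07 at 48 h (SD 0.01 and 0.047 between libraries). The 5 regulators had medians of -0.19, -0.37 and -0.42. The members were listed with earlier results of these data known, so these medians and counts carry no test.

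The summed level told the same order of events. The sterol arm amounted to 1314 ± 5.18 TPM at 0 h, 1192 ± 23.6 TPM at 6 h, 893 ± 5.71 TPM at 12 h, 977.3 ± 1.3 TPM at 24 h, and 683.9 ± 2.75 TPM at 48 h (SD, n = 2). The fatty acid arm amounted to 1262 ± 2.58, 1273 ± 27.7, 1291 ± 22.8, 1083 ± 48.6 and 818.4 ± 7.02 TPM at the same times. At 12 h the sterol sum was thus below its 0 h value in both libraries while the fatty acid sum was above, and at 48 h both were at their lowest. The Mock sums were 1092 ± 9.37 and 1165 ± 11.1 TPM, which for the sterol arm lies between the 24 h and 6 h sums. The lowest level of the time course was at 48 h for 11 of 18 sterol and 5 of 7 fatty acid genes. A sum is carried by its most abundant members, and Scd2 and Acly made up most of the fatty acid arm.

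**Figure D3:**
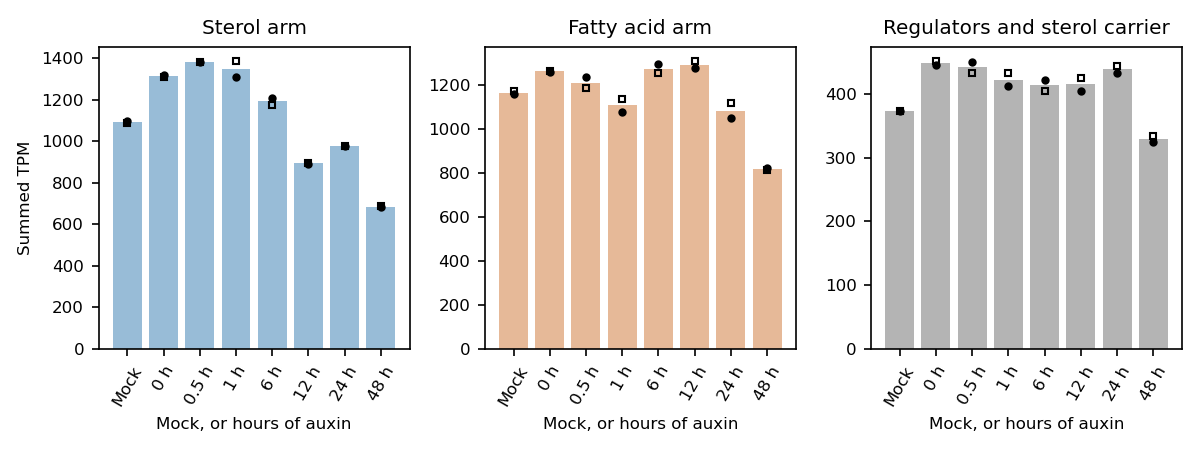
Summed TPM of the sterol arm, the fatty acid arm and the regulators with the sterol carrier (vertical axes from 0) in Mock and at each hour of auxin; bars are means and symbols the 2 libraries. The sterol sum falls to 893 TPM at 12 h while the fatty acid sum stays at 1291 TPM, and both are lowest at 48 h (683.9 and 818.4 TPM).

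To test whether the late state differed from that at 24 h, the 48 h libraries were compared directly with the 24 h libraries. In this contrast 1 member was higher and 10 were lower, against 12.2% of all genes higher and 12.3% lower. Among the sterol genes Fdps (-0.99 ± 0.056), Fdft1 (-0.97 ± 0.069), Cyp51 (-0.87 ± 0.061), Tm7sf2 (-0.84 ± 0.14), Dhcr7 (-0.77 ± 0.069), Msmo1 (-0.71 ± 0.053), Mvd (-0.67 ± 0.091) and Acat2 (-0.59 ± 0.056) were lower. Hsd17b7 was higher (0.95 ± 0.15, adjusted p = 1.2e-05 by edgeR), in each 48 h library above each 24 h library. Hmgcs1 (-0.05 ± 0.042), Sqle (-0.05 ± 0.061) and Idi1 (0.28 ± 0.076) were not called. Acaca (-0.59 ± 0.072) and Srebf1 (-0.90 ± 0.051) were the calls outside the sterol arm. The 24 h libraries also enter the 24 h against 0 h comparison, so a gene's values in both contrasts are not independent. The Acat2 and Acaca calls were lost without 24 h replicate 2 (both -0.56), and without 48 h replicate 2 those of Acat2 (-0.57) and Mvd (-0.56) were lost. Acss2, Scd1 and Scap, with -0.57, -0.58 and -0.57, were each called when 1 of the libraries was left out.

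**Figure D4:**
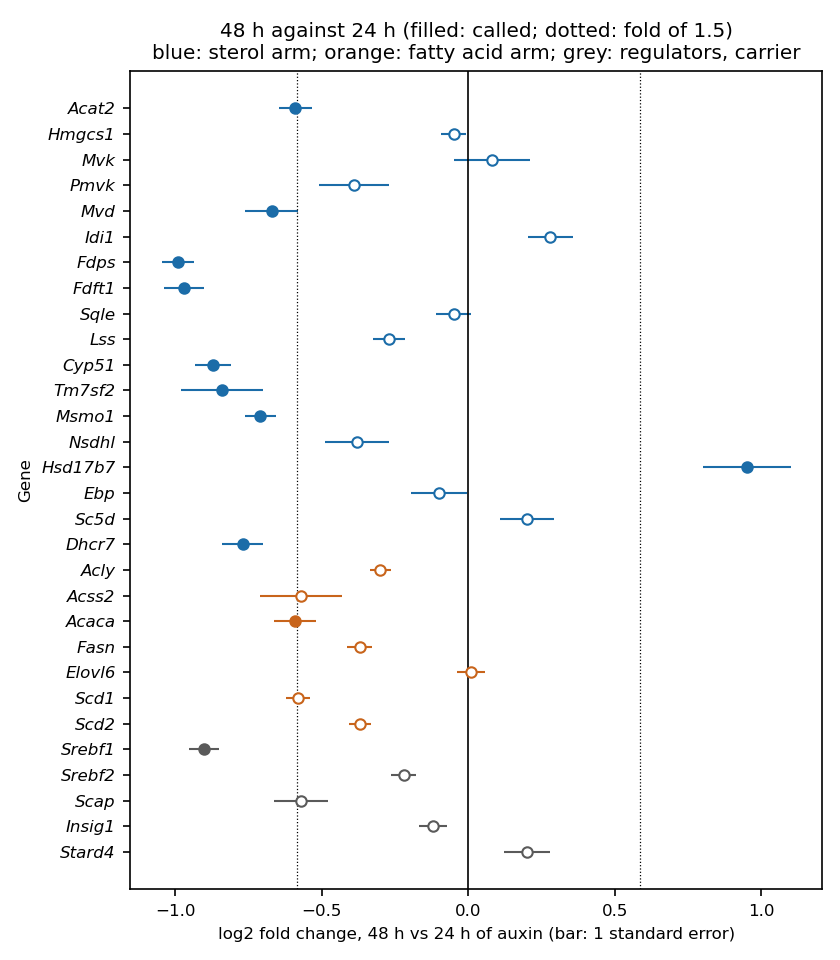
log2 fold change of each of the 30 genes at 48 h against 24 h of auxin (horizontal axis; points with 1 standard error, filled where called, dotted lines at a fold of 1.5). Of the called genes 10 lie to the left, with Fdps lowest at -0.99, and Hsd17b7 alone lies to the right at 0.95.

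Several genes that handle sterol were called higher from 6 h on. The list covered sterol uptake, efflux and esterification. Of its 17 tested genes, 4 were higher and 0 lower at 6 h. At 12 h 7 were higher and 1 lower, while 24 h had 8 with 2, then 48 h had 7 with 1. Among all genes 10.1% were higher and 5.7% lower at 6 h, while 12 h had 14.8% with 13.2%, 24 h had 20.2% with 20.3%, then 48 h had 17.9% with 17.6%. The list's median log2 fold changes at these times were 0.24, 0.34, 0.52 and 0.16. Abcg1, a sterol exporter and classical liver X receptor target, measured 4.51 and 4.94 CPM at 0 h, 11.4 and 12.4 CPM at 6 h, 30 and 27 CPM at 12 h, 57.3 and 60.3 CPM at 24 h, and 20.8 and 20.3 CPM at 48 h. Its rise was called from 6 h (1.33 ± 0.14) and reached 3.64 ± 0.11 at 24 h (adjusted p = 1.6e-18 by edgeR). Abca1, the exporter to apolipoprotein A-I, measured 2.22 and 2.87 CPM at 0 h and 15.7 and 15.4 CPM at 48 h, where it was higher by 2.60 ± 0.2. Both exporters were lower in Dox than in Mock (-0.86 ± 0.15 for Abcg1 and -1.42 ± 0.23 for Abca1). At 6 h Abca1 measured 6.28 and 5.43 CPM, which overlapped its Mock libraries (7.42 and 6.23 CPM). Abcg1 lay above its Mock libraries (8.35 and 8.85 CPM) at 6 h. The calls of this list at the auxin times with Mock as baseline were not determined.

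Mylip, a ubiquitin ligase of lipoprotein receptors, rose as well, from 5.23 and 6.19 CPM at 0 h to 25.5 and 27.7 CPM at 24 h (2.22 ± 0.14). Npc1, which moves cholesterol out of lysosomes, rose from 50.4 and 48.8 CPM at 0 h to 89.1 and 89.3 CPM at 6 h (0.85 ± 0.056) and 134 and 144 CPM at 24 h. Lipa, the lysosomal acid lipase that frees cholesterol from its esters, fell from 4.08 and 4.64 CPM at 0 h to 0.869 and 0.579 CPM at 12 h and 0.487 and 0.615 CPM at 48 h (-2.57 ± 0.34 and -2.96 ± 0.35), and rests on few counts. Against 0 h, Abcg1, Abca1, Mylip and Npc1 were called at 6 h, when no synthesis gene was, and the difference between lists was not tested. At 6 h 13 of the 30 members had an adjusted p under 0.05 by edgeR but stayed under the fold threshold. The share of all genes for that count was not determined. On the fly scale the list held 3 higher and 5 lower at 12 h, while 24 h had 6 with 3, then 48 h had 6 with 2.

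**Figure D5:**
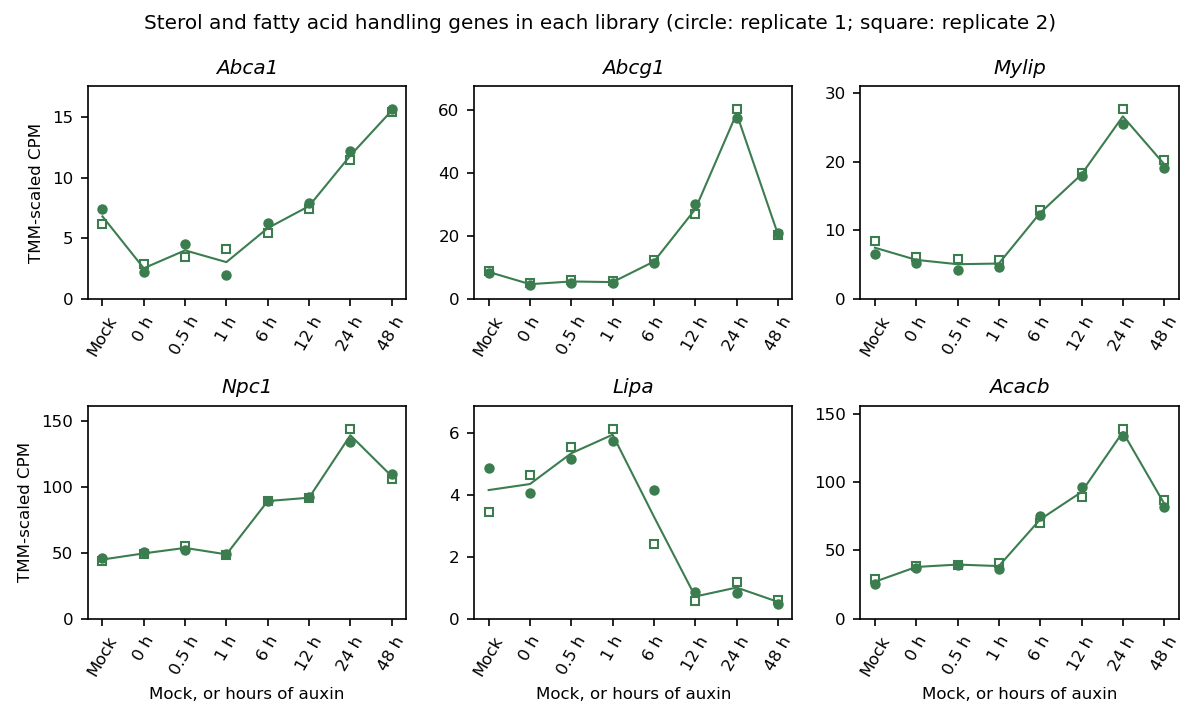
Level of 5 sterol handling genes and Acacb in each of the 16 libraries (vertical axis, TMM-scaled CPM from 0; horizontal axis, Mock and then hours of auxin). Abcg1, Mylip, Npc1 and Acacb are highest at 24 h, Abca1 at 48 h, and Lipa is lowest from 12 h on.

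Some genes that govern SREBP cleavage and sterol sensing were called as well. Insig2, the other retention protein, fell from 13.5 and 15.8 CPM at 0 h to 7.67 and 8.27 CPM at 12 h (-0.88 ± 0.14), so that both 12 h libraries lay below those of 0 h. At 24 h the ubiquitin ligases Rnf145 (-0.88 ± 0.074) and Rnf139 (-0.82 ± 0.099) were lower. Erlin1, a membrane protein that binds cholesterol, was higher at 24 h and 48 h (0.83 ± 0.06 and 0.74 ± 0.06). On the fly scale its 48 h call was lost.

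Fatty acid genes outside the synthesis arm were called in both directions. Of 21 genes of elongation, desaturation and activation, 2 were higher and 0 lower at 6 h, while 12 h had 4 higher with 2 lower, 24 h had 5 with 4, then 48 h had 4 with 4, close to the shares of all genes just given. On the fly scale 12 h had 2 higher with 6 lower, 24 h had 5 with 4, then 48 h had 3 with 7. Acacb, the mitochondrial carboxylase whose malonyl-CoA restrains fatty acid oxidation, measured 37.3 and 38.6 CPM at 0 h, 75.5 and 69.9 CPM at 6 h, 134 and 139 CPM at 24 h, and 82 and 86.6 CPM at 48 h. Acacb was therefore higher (1.85 ± 0.065 at 24 h) at times when its cytosolic relative Acaca was not. Elovl7 was higher at 24 h and 48 h (1.68 ± 0.096 and 1.65 ± 0.096), and the acyl-CoA synthetase Acsl1 at 24 h (1.22 ± 0.06). Dbi, which binds acyl-CoA, was lower at 48 h (-1.60 ± 0.086), as was Tecr, the last reductase of elongation (225 and 238 CPM at 0 h, 87.2 and 95 CPM at 48 h, -1.34 ± 0.051). The acyl-CoA synthetase Acsl5 was lower at 24 h and 48 h (-1.48 ± 0.22 and -1.53 ± 0.22).

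Some members share exon sequence with other genes, and no source used here gives the strand setting of the counting, so reads there cannot be told apart by strand. On GRCm38 (GENCODE annotation), 26.7% of the exon bases of Fdps (chr3:89093588-89101959) lie in exons of Gm43738 on the same strand, and 12.1% of those of Tm7sf2 (chr19:6062821-6068373) in exons of Vps51. On the opposite strand, Fdft1 (chr14:63145150-63179578) shares 18.3% with Ctsb, Hmgcs1 (chr13:119690379-119708260) 12.1% with the antisense gene Gm48342, Scap (chr9:110333288-110384950) 13.2% with 5830462I19Rik, and Idi1 (chr13:8885501-8892451) 9.22% with Gm48574. Acss2 (chr2:155517948-155585724) and Srebf1 (chr11:60199089-60222581) share at most 3.89% with any other gene, and Hsd17b7 (chr1:169949535-169969241) shares none.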

How the data were processed

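Poly(A) RNA-Seq of 16 libraries was analysed. Reads had been trimmed (cutadapt 1.18), aligned to mm10 (STAR 2.7.3a), freed of duplicates and quantified per GENCODE gene (RSEM 1.3.1) by the authors. The authors deposited expected counts (6.759 to 7.941% of values not whole) and TPM, which RSEM scales for transcript length. Removal of duplicates without molecular identifiers can lower the counts of abundant genes. The authors' sheet of fold changes and p-values was not used.

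Expected counts were rounded, filtered with filterByExpr, scaled by TMM and fitted over all 16 libraries with edgeR 4.0.16 (quasi-likelihood test, Benjamini-Hochberg adjustment over 15155 genes, R 4.3.3). Library totals were 11666732 to 13924958, and the biological coefficient of variation was 3.426%. Groups follow the labels. DESeq2 1.42.0 and limma 3.58.1 on log2(TPM + 1) were alternatives, beside other scalings, filters, fold thresholds, Mock as baseline, a replicate block and leaving out each library. Fly reads per library were taken from the study's supplement as a scaling alternative only.

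The members and lists were chosen with earlier results of these data known. All 30 members are accounted for, those called in at least 1 of 7 comparisons with their values. Of each other list, up to 4 called genes per comparison with the largest fold change and at least 5 CPM in a group were eligible to be named. Some genes of the list on SREBP cleavage and sterol sensing, and the counts over that list, are not reported here.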

Additional observations from a re-analysis of the deposited data

Results flagged for a closer look

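For 11 genes the 48 h libraries were called different from the 24 h libraries in a direct test (edgeR, Benjamini-Hochberg adjusted p under 0.05, fold change over 1.5). With the same fold threshold, 12.2% of all tested genes were called higher and 12.3% lower. Without the fold threshold there were 24 of 30 members, for which the share of all genes was not determined. The log2 differences, 48 h minus 24 h, were -0.59 for Acat2, -0.67 for Mvd, -0.99 for Fdps, -0.97 for Fdft1, -0.87 for Cyp51, -0.84 for Tm7sf2, -0.71 for Msmo1, -0.77 for Dhcr7, -0.59 for Acaca and -0.90 for Srebf1. Hsd17b7 differed the other way, by 0.95. These differences are between the 48 h and 24 h libraries, and the 0 h level does not enter them.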

How the results depend on the processing

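Calls of members numbered 1 (Dox against Mock), 0, 0, 0, 8, 9 and 17 (0.5 to 48 h) and 11 (48 h against 24 h). Scaling to fly reads gave 19 for Dox against Mock, 26 at 12 h and 14 at 24 h, since it moves every gene of a library together. Without a fold threshold there were 19, 6, 6, 13, 25, 25, 27 and 24 calls in that order, and with a fold over 2 there were 0 for Dox against Mock, 2, 3 and 6 at 12, 24 and 48 h, and 0 for 48 h against 24 h. At these other thresholds the shares of all genes were not determined. With Mock as baseline there were 4, 3 and 2 at 0.5, 1 and 6 h, all higher, 4 at 12 h (1 higher), 10 at 24 h (4 higher) and 11 at 48 h (all lower), and the cause was not tested. Leaving out each library gave 0 to 1 calls for Dox against Mock and at 6 h, 7 to 9 at 12 h, 8 to 9 at 24 h, 17 to 18 at 48 h and 10 to 13 for 48 h against 24 h.

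The sterol minus fatty acid difference in median was -0.27 at 12 h and -0.06 at 24 h with Mock as baseline, and -0.08 at 24 h with limma. Leaving out each library it ranged from -0.42 to -0.34 at 12 h, from -0.13 to -0.02 at 24 h and from -0.13 to -0.06 at 48 h. These differences in median stayed negative, and no single-gene call reversed its direction in the alternatives. Values that were not called did change sign on the fly scale. At 12 h those of Elovl6 (0.41 to -0.15), Scd2 (0.08 to -0.48) and Srebf1 (0.50 to -0.06) turned negative there. Of the single-gene calls, 35 were lost at a fold over 2, 12 with Mock as baseline, 4 with limma and 3 on the fly scale. The replicate block gave 1, 0, 0, 0, 8, 9, 17 and 11 calls. Same-numbered libraries did not deviate together (correlations -0.08 to 0.06), so the numbers were not taken as pairs.

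Precision is limited by 2 libraries per group, which the methods call technical, and several calls lie next to the fold threshold.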

Other observations

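Genes that use fatty acids for glycerolipids were called in both directions. Of 19 tested, 4 were higher and 2 lower at 12 h by edgeR, while 24 h had 7 higher with 2 lower, then 48 h had 6 with 2. Among all genes 14.8% were higher and 13.2% lower at 12 h, while 24 h had 20.2% with 20.3%, then 48 h had 17.9% with 17.6%. Lpin1, a phosphatidate phosphatase, measured 9.89 and 11.1 CPM at 0 h, 23 and 20.4 CPM at 6 h, 39.1 and 44.1 CPM at 24 h, and 20 and 23.5 CPM at 48 h, with all libraries from 6 h on above those of 0 h (log2 fold change 1.99 ± 0.11 at 24 h). Gpat3, an acyltransferase of the first step, and Dgat2, which makes triglyceride, were higher by 2.47 ± 0.27 at 24 h and 2.69 ± 0.25 at 48 h from levels near 1 CPM. Pcyt1a, of phosphatidylcholine synthesis, was lower at 24 h (-1.26 ± 0.086). On the fly scale the counts were 3 higher and 8 lower, 5 and 2, and 4 and 3.

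Of 19 genes of fatty acid oxidation, 1 was higher and 2 lower at 12 h, while 24 h had 3 higher with 1 lower, then 48 h had 1 with 4, mostly at or below the shares of all genes just given. Cpt1a, which admits fatty acids to mitochondria, rose with doxycycline alone, from 96.7 and 97.9 CPM in Mock to 198 and 192 CPM in Dox (1.00 ± 0.045), and measured 359 and 383 CPM at 24 h. Etfdh, which passes electrons from this pathway to the respiratory chain, fell from 32.5 and 35.4 CPM at 0 h to 11.5 and 12.9 CPM at 48 h (-1.47 ± 0.1). On the fly scale the counts were 0 higher and 9 lower, 2 and 4, and 0 and 4.

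Of 13 genes of the isoprenoid branch, 1 was higher and 1 lower at 12 h, while 24 h had 1 higher with 3 lower, then 48 h had 0 with 2, against the same shares of all genes. Zmpste24, a protease of prenylated proteins, fell from 40.4 and 37 CPM at 0 h to 17.8 and 14.6 CPM at 12 h (-1.25 ± 0.099). Icmt, the methyltransferase of prenylated proteins, was higher at 12 h (0.79 ± 0.08), and on the fly scale no gene of this list was higher at 12, 24 or 48 h.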
